A study of Mus musculus with 24 samples.

Results

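Reads of 5 genes that encode the TLR4 lipopolysaccharide receptor complex and a related complex were followed in mouse pulmonary fibroblasts. The genes were Tlr4, Ly96 (MD-2) and Cd14 of the TLR4 receptor complex, and Cd180 (RP105) and Ly86 (MD-1) of its homologue. They were chosen by name among the 55291 gene names in the count files, all 5 were found, and all 5 were among the 16258 genes that passed the filter on low counts.

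Cells came from wild type (WT) or TLR4-/- mice on a C57BL/6 background, aged 4 to 8 weeks, and each group was grown from the pooled lungs of 3 to 4 mice and used at passages 3 to 6. They were incubated for 24 h with PBS, with recombinant mouse CIRP (rmCIRP) at 1 μg/ml, with recombinant mouse TGF-β1 at 2 ng/ml (rmTGF-β1) or with both, with 3 libraries of total RNA for each of the 8 conditions. The TLR4 allele is not described in the labels, and Tlr4 reads were not fewer in these libraries, so that they are called libraries labelled TLR4-/- throughout. Because each genotype came from pooled mice, the spread between the 3 libraries may be technical, and the p-values measure that spread alone.

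TLR4 is the signaling receptor for bacterial lipopolysaccharide. CD14 is a surface protein that hands lipopolysaccharide to TLR4, and MD-2 is the small partner, bound to the outer part of TLR4, that holds the lipid. CD180 resembles the outer part of TLR4 but lacks its intracellular signaling domain, pairs with MD-1 as TLR4 pairs with MD-2, and is known from B cells, macrophages and dendritic cells. CIRP is an RNA-binding protein that acts outside cells as a danger signal and is reported to bind TLR4, and TGF-β1 is a growth factor that drives fibroblasts to make matrix.

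Each library held between 29853346 and 39664606 reads on genes. The 8 fibroblast markers examined summed to between 391672 and 567908 normalised counts per library, so that the labelled cell type was present in every library. The 10 macrophage markers (Adgre1, Csf1r, Cd68, Mertk, Fcgr1, Lyz2, Ptprc, Mrc1, Siglec1 and Marco) summed to between 71508 and 91527 normalised counts in the 12 WT libraries and between 293271 and 372913 in the 12 labelled TLR4-/- libraries. None of the 10 was at 0 in any library. The 5 B cell markers summed to at most 81.0 normalised counts in a library. Xist, transcribed from the inactive X chromosome of female cells, had at most 3 reads in WT libraries and 4403 to 6201 in those labelled TLR4-/-, while reads of the Y-linked gene Ddx3y were present in all 24 libraries. The genotype and the sexes pooled cannot be told apart. Replicate 3 of the labelled TLR4-/- cells with both agents stood apart from its replicates, with a chi-square per degree of freedom of 45.7 against replicate 1 and 31.3 against replicate 2, where the median of the 24 replicate pairs was 4.71. Replicate 3 of the labelled TLR4-/- cells with rmTGF-β1 stood apart by less, at 11.9 and 15.6 against its replicates, which were 3.57 from each other. Several results that rest on these 2 libraries are given with and without them, but not all. Member results whose call or direction changed when a library was left out are listed in the last section.

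Per kilobase of exon, Cd14 was the most abundant member in all 8 conditions, with no overlap with the next gene. In WT cells with PBS the mean level per kilobase of exon was 906 ± 85.6 (SD, n = 3) normalised counts for Cd14, 276 ± 8.20 for Ly96, 137 ± 7.54 for Tlr4, 53.7 ± 2.35 for Cd180 and 31.4 ± 5.50 for Ly86. No neighbours in this order overlapped between libraries. The order was kept in the other 3 WT conditions, although Cd180 and Ly86 overlapped with rmCIRP and with both. In the labelled TLR4-/- libraries with PBS, Tlr4 was the lowest of the 5 at 163 ± 3.64 normalised counts per kilobase of exon, while Ly86 at 249 and Cd180 at 245 overlapped each other.

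**Figure D1:**
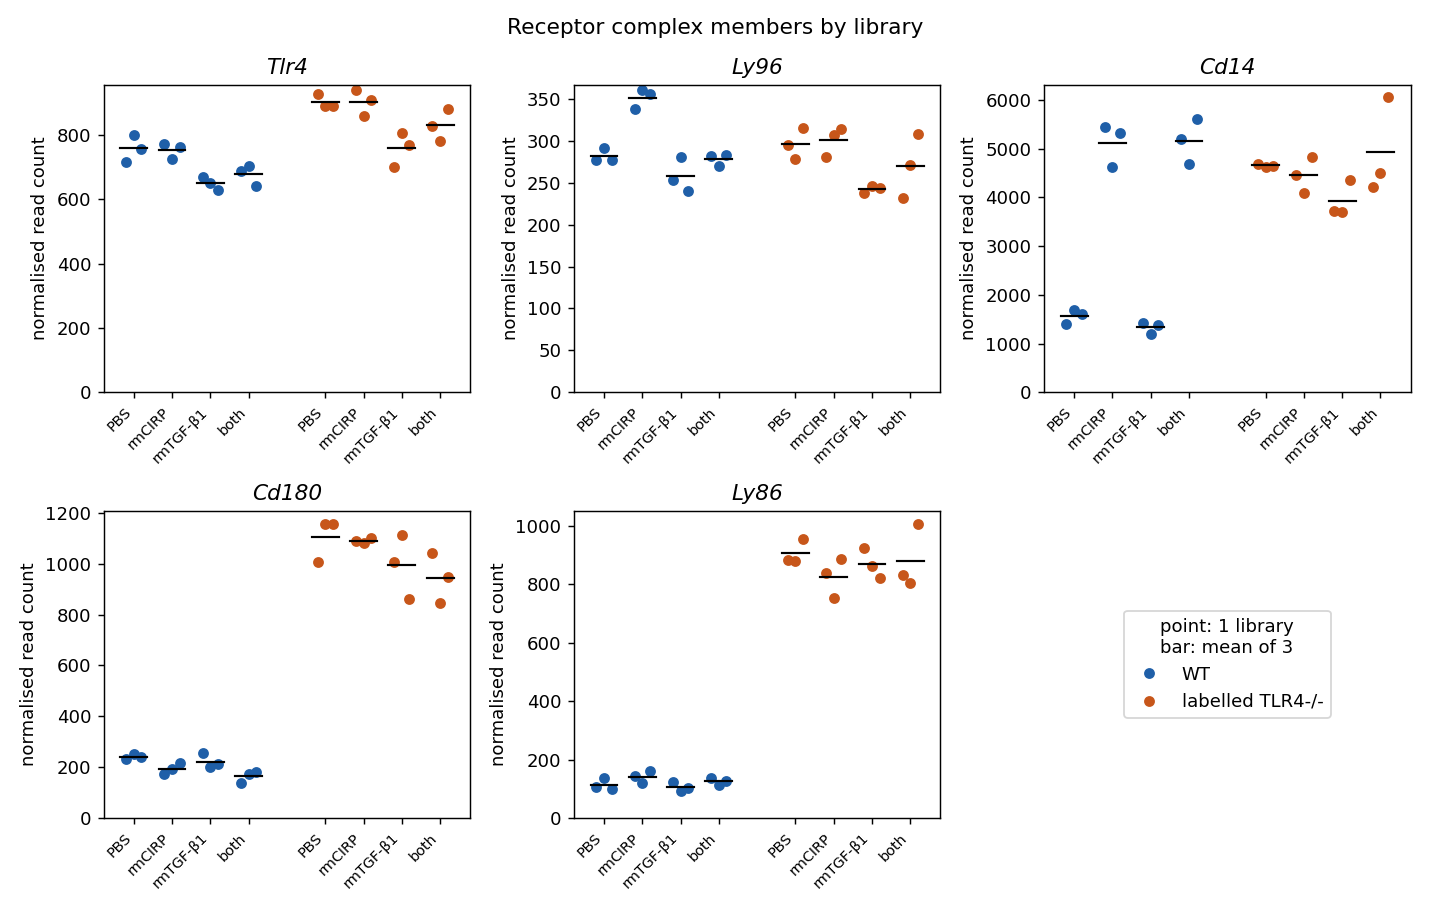
Normalised read count (y axis, linear from 0) of each of the 5 members by condition (x axis). Each point is 1 library and each black bar the mean of 3, with WT in blue and labelled TLR4-/- in orange. In WT cells Cd14 lies between 1403 and 1688 with PBS and between 4614 and 5436 with rmCIRP, and Cd180 and Ly86 are higher in every labelled TLR4-/- library than in any WT library.

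To examine whether rmCIRP changes the receptor complex, WT cells with rmCIRP were compared with WT cells with PBS. rmCIRP increased Cd14 3.25-fold and raised Ly96 by less, while Tlr4 itself showed no change that passed the threshold and Cd180 fell. Of the 5 members, 3 were called, where 43.9% of all genes tested were called.

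The normalised counts of Cd14 in the 3 libraries were 1403, 1688 and 1616 with PBS and 5436, 4614 and 5316 with rmCIRP. All 3 libraries with rmCIRP were well above those with PBS. The log2 difference was 1.70 (SE 0.11, adjusted p = 4.7e-11). Markers of other cells moved in the same comparison. Of the 10 macrophage markers 4 were called higher and 5 lower. The log2 differences were 2.26 for Fcgr1, 1.78 for Marco, 0.98 for Adgre1 and 0.56 for Ptprc. Those called lower were Mrc1 at -0.71, Mertk at -0.66, Csf1r at -0.52, Lyz2 at -0.33 and Cd68 at -0.24. The sum of the 10 was 84111 to 91527 normalised counts with PBS and 73784 to 78129.9 with rmCIRP, but Lyz2 made up 87.8% and 81.8% of it. The other 9 summed to 10104 to 11425 with PBS and 13352 to 14225 with rmCIRP, but did not move together. Mean counts went from 954 to 3289 for Marco and from 2033 to 4014 for Adgre1. They went from 3035 to 2123 for Csf1r and from 1252 to 770 for Mrc1. Of the 4 neutrophil markers both that were tested were called higher (S100a8 by 1.04 and Csf3r by 2.41), S100a9 was at 0 in every library and Ly6g had at most 2 reads, and the sum of the 4 went from 141 to 173 normalised counts with PBS to 392 to 426 with rmCIRP. Of the 8 fibroblast markers 2 were called higher and 5 lower. Among markers of other cell types, Xcr1 (dendritic cells, 1.81) and Pax5 (B cells, 5.64) were called higher. Cdh1 (epithelial cells, -2.65) and Kdr (endothelial cells, -0.54) were called lower. The part of all these markers in the rise of Cd14 was not tested.

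Ly96, which encodes the lipid-holding partner of TLR4, had 277, 292 and 277 normalised counts with PBS and 337, 360.1 and 356 with rmCIRP. The groups did not overlap. The log2 difference was 0.31 (SE 0.08, adjusted p = 0.0039).

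Tlr4 had 718, 802 and 758 normalised counts with PBS and 771, 725 and 763 with rmCIRP. The values with rmCIRP lay within the range of those with PBS, and the log2 difference of -0.017 had a 95% interval from -0.14 to 0.10. A 3.25-fold rise of Cd14 thus went with no detectable rise of the receptor it serves.

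Cd180, the TLR4 homologue, had 233, 254 and 239 normalised counts with PBS and 173, 192 and 218 with rmCIRP. Each library with rmCIRP was below each with PBS, and the log2 difference was -0.32 (SE 0.12, adjusted p = 0.049). The call was lost without replicate 2 of PBS or without replicate 1 or replicate 2 of rmCIRP, with log2 differences between -0.40 and -0.24 over the 6 fits that left out a library. Among markers of B cells, where CD180 is best known, the summed level had a median of 10.6 normalised counts with PBS and 76.4 with rmCIRP, most of it Pax5, while Ms4a1, Cd79a and Cd79b had at most 9 reads in any library.

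Ly86, the partner of CD180, had 107, 137 and 98.9 normalised counts with PBS and 144, 120.4 and 161 with rmCIRP. The groups overlapped, and the log2 difference of 0.31 (SE 0.15) gave an adjusted p of 0.104, just short of the threshold. It passed the threshold in 6 of the 7 other analyses of all libraries, with adjusted p between 0.029 and 0.0995, and not when libraries were scaled by their totals alone.

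**Figure D2:**
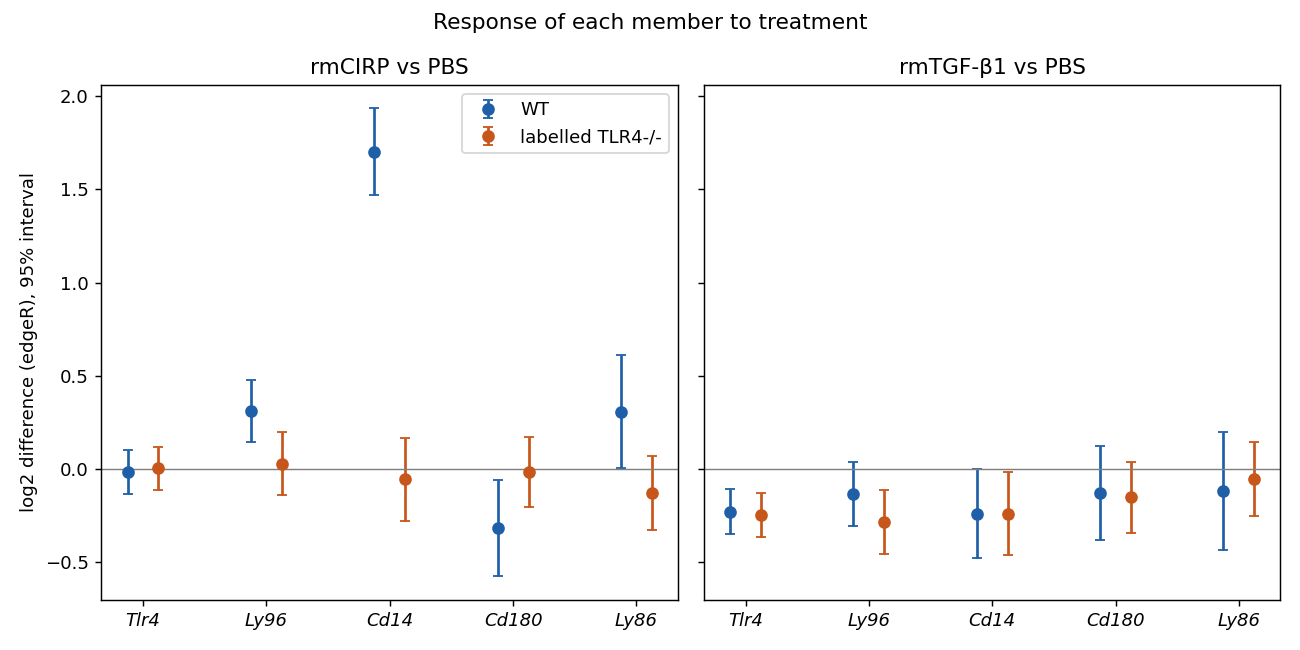
Log2 difference from PBS (y axis, edgeR estimate with its 95% interval) of the 5 members (x axis) with rmCIRP (left) and rmTGF-β1 (right), in WT (blue) and labelled TLR4-/- (orange) cells. With rmCIRP, Cd14 stands at 1.70 in WT cells and at -0.055 in labelled TLR4-/- cells, and with rmTGF-β1 Tlr4 lies below 0 in both.

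The same comparison in the presence of rmTGF-β1 asked whether these responses persist when the profibrotic factor is added. Compared with rmTGF-β1 alone, both agents together raised Cd14 3.86-fold and lowered Cd180, so that 2 of the 5 members were called, with 42.2% of all genes. Cd14 had 1421, 1194 and 1380.2 normalised counts with rmTGF-β1 and 5205, 4683 and 5598 with both. The libraries were far apart, and the log2 difference was 1.95 (SE 0.11, adjusted p = 6.0e-12). Cd180 had 254, 199.98 and 213 normalised counts with rmTGF-β1 and 139.7, 173 and 182 with both, a log2 difference of -0.44 (SE 0.13, adjusted p = 0.011). These groups did not overlap either. The log2 differences of Tlr4 (0.06), Ly96 (0.11) and Ly86 (0.24) did not pass. When the rmCIRP responses with and without rmTGF-β1 were compared directly, 0 of the 5 members differed, with 0.0492% of all genes called by edgeR. The estimate was 0.25 (95% interval -0.08 to 0.57) for Cd14 and -0.21 (95% interval -0.45 to 0.04) for Ly96, and across all genes 6 were higher and 2 lower, with DESeq2 calling 37 genes and none of the members.

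rmTGF-β1 alone lowered Tlr4 in WT cells, the only member called (1 of 5, with 12.4% of all genes). Those 2019 genes became 1029 without replicate 2 of rmTGF-β1 and 1253 without replicate 3 of PBS. The normalised counts of Tlr4 were 671, 649.9 and 629.7 with rmTGF-β1, all below the 718 to 802 with PBS. The log2 difference was -0.23 (SE 0.06, adjusted p = 0.016), and the call was lost without replicate 2 of PBS. The other members had log2 differences between -0.24 (Cd14) and -0.12 (Ly86) that did not pass. Adding rmTGF-β1 to rmCIRP gave 2 called members of 5, with 20.5% of all genes called. Ly96 was at 281, 270.4 and 283 normalised counts with both, below the 337 to 360.1 with rmCIRP alone, a log2 difference of -0.34 (SE 0.08, adjusted p = 0.0056). Tlr4 was at 689, 704 and 643 normalised counts with both, below the 725 to 771 with rmCIRP alone, by a log2 difference of -0.15 (SE 0.06, adjusted p = 0.082). The Tlr4 call was lost in 5 of the 6 fits that left out a library, every one except that without replicate 2 of both, and was lost with DESeq2 and without the filter on low counts.

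In the labelled TLR4-/- libraries, rmCIRP changed none of the members by the test used. By edgeR, 0 of the 5 members and 0% of all genes were called, with 1136 genes at an unadjusted p under 0.05 and 33 genes called by DESeq2, none of them a member. Cd14 had 4691, 4622 and 4644 normalised counts with PBS and 4466, 4098 and 4819.9 with rmCIRP. These overlapped, with a log2 difference of -0.055 and a 95% interval from -0.28 to 0.17. The intervals of Tlr4 (-0.11 to 0.12), Ly96 (-0.14 to 0.20), Cd180 (-0.20 to 0.17) and Ly86 (-0.32 to 0.07) also included 0.

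How far the rmCIRP responses of the 2 genotypes differed was then tested in 1 contrast. The difference passed for 3 of the 5 members, with 31.4% of all genes called. The log2 response of Cd14 was lower by 1.76 in labelled TLR4-/- cells (difference -1.76, SE 0.15, adjusted p = 1.5e-08), and this held in all 12 fits that left out a library, at -1.84 to -1.70. Those of Ly96 (-0.28, SE 0.11, adjusted p = 0.076) and Ly86 (-0.44, SE 0.17, adjusted p = 0.072) were also lower, but passed in only 5 and 6 of those 12 fits. For Cd180 the difference was 0.30 (95% interval -0.017 to 0.62), and for Tlr4 it was 0.02 (95% interval -0.15 to 0.19). Neither passed the threshold. The labelled TLR4-/- libraries with PBS already held 4622 to 4691 normalised counts of Cd14, within the 4614 to 5436 of WT libraries with rmCIRP, so that the 2 responses began from unlike levels.

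rmTGF-β1 lowered Tlr4 in labelled TLR4-/- libraries as well. Of the 5 members 2 were called, with 23.9% of all genes (3884 genes, and 2517 without replicate 3 of rmTGF-β1). Tlr4 had 927, 892 and 891 normalised counts with PBS and 702, 808 and 769 with rmTGF-β1, with no overlap and a log2 difference of -0.25 (SE 0.06, adjusted p = 0.0040). Ly96 had 294, 278 and 315 normalised counts with PBS and 238, 245 and 244 with rmTGF-β1, a log2 difference of -0.28 (SE 0.08, adjusted p = 0.022) that did not pass without replicate 3 of PBS. Both partners of the complex were thus lower in each library with rmTGF-β1 than in any with PBS. Cd14 was below too in each library, at 3719, 3693 and 4364 normalised counts, but its log2 difference of -0.24 (SE 0.11, adjusted p = 0.134) missed the threshold. Without replicate 3 of rmTGF-β1, Cd14 passed at -0.32 (adjusted p = 0.080), and Tlr4 (-0.25, adjusted p = 0.013) and Ly96 (-0.29, adjusted p = 0.059) still passed. The direct test of the rmTGF-β1 response between genotypes called 0 of the 5 members by edgeR, with 0.0861% of all genes called, and DESeq2 called none of them either. Its estimates lay between -0.15 (Ly96, 95% interval -0.39 to 0.10) and 0.06 (Ly86, 95% interval -0.31 to 0.43).

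The comparisons with both agents in labelled TLR4-/- cells depended on single libraries. Compared with rmTGF-β1 alone, both agents gave 0 called members, with 2.69% of all genes called (437 genes). That number was 1 without replicate 3 of both, 2674 without replicate 1 and 738 without replicate 2 of both, and 0, 79 and 2141 without replicates 1, 2 and 3 of rmTGF-β1. Cd14 had 4213, 4509 and 6061 normalised counts with both, the highest in replicate 3. Its log2 difference from rmTGF-β1 was 0.32 (SE 0.11, adjusted p = 0.131) with all libraries, 0.15 (adjusted p = 0.69) without replicate 3 of both and 0.41 (adjusted p = 0.039) without replicate 3 of rmTGF-β1. DESeq2 called Cd14 in this comparison, at 0.33 (adjusted p = 0.059). Compared with rmCIRP alone, 1 of the 5 members was called, with 32.8% of all genes: Cd180, at 1042, 847 and 946 normalised counts against 1088, 1082 and 1102, a log2 difference of -0.21 (SE 0.09, adjusted p = 0.091). Without replicate 3 of both the Cd180 difference did not pass (adjusted p = 0.147), while those of Ly96 (-0.26, adjusted p = 0.030) and Tlr4 (-0.17, adjusted p = 0.058) did. The Cd180 call was also lost without any 1 of the 3 rmCIRP replicates or replicate 2 of both, the estimates of the 6 fits lying between -0.29 and -0.14. It was lost as well with DESeq2, with RLE scaling and with only the libraries compared.

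The genotypes differed most in the CD180 and MD-1 pair. With PBS, 4 of the 5 members were called, all higher in labelled TLR4-/- libraries, with 47.1% of all genes called. Cd180 was 4.56-fold and Ly86 7.90-fold higher, while Tlr4 was 1.19-fold higher and Ly96 did not pass. Cd180 had 1008, 1157 and 1155 normalised counts against 233, 254 and 239 in WT, a log2 difference of 2.19 (SE 0.11, adjusted p = 6.9e-14). Ly86 had 881, 879.5 and 956 normalised counts against 107, 137 and 98.9, a log2 difference of 2.98 (SE 0.12, adjusted p = 2.9e-15). Both were far outside the spread between replicates. Cd14, at 4691, 4622 and 4644 against 1403, 1688 and 1616 normalised counts, differed by 1.56 on the log2 scale (SE 0.11, adjusted p = 8.6e-11).

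Macrophage markers moved with these differences. With PBS, 9 of the 10 were called higher in labelled TLR4-/- libraries and 1, Marco, lower. Their median log2 difference was 1.87 and the log2 ratio of their summed level, mostly Lyz2, was 1.85, beside 1.56 for Cd14, 2.19 for Cd180 and 2.98 for Ly86. The part of these markers in the differences between genotypes was not tested, and in such bulk libraries fewer cells of a type and less RNA per cell cannot be told apart. The 5 B cell markers stayed near 0, with a median sum of 10.6 normalised counts in WT and 12.7 in labelled TLR4-/- libraries with PBS. Markers of other cells differed too. Of 8 fibroblast markers 1 was called higher and 3 lower (median -0.11). Those called were Dcn at 0.25, Pdgfra at -1.19, Thy1 at -1.16 and Pdgfrb at -0.31. Among 4 endothelial markers 1 was called higher and 2 lower. Of the 2 neutrophil markers tested 1 was called higher, as was the 1 epithelial marker tested. Neither of the 2 dendritic cell markers tested was called. The part of these other markers was not tested either.

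**Figure D3:**
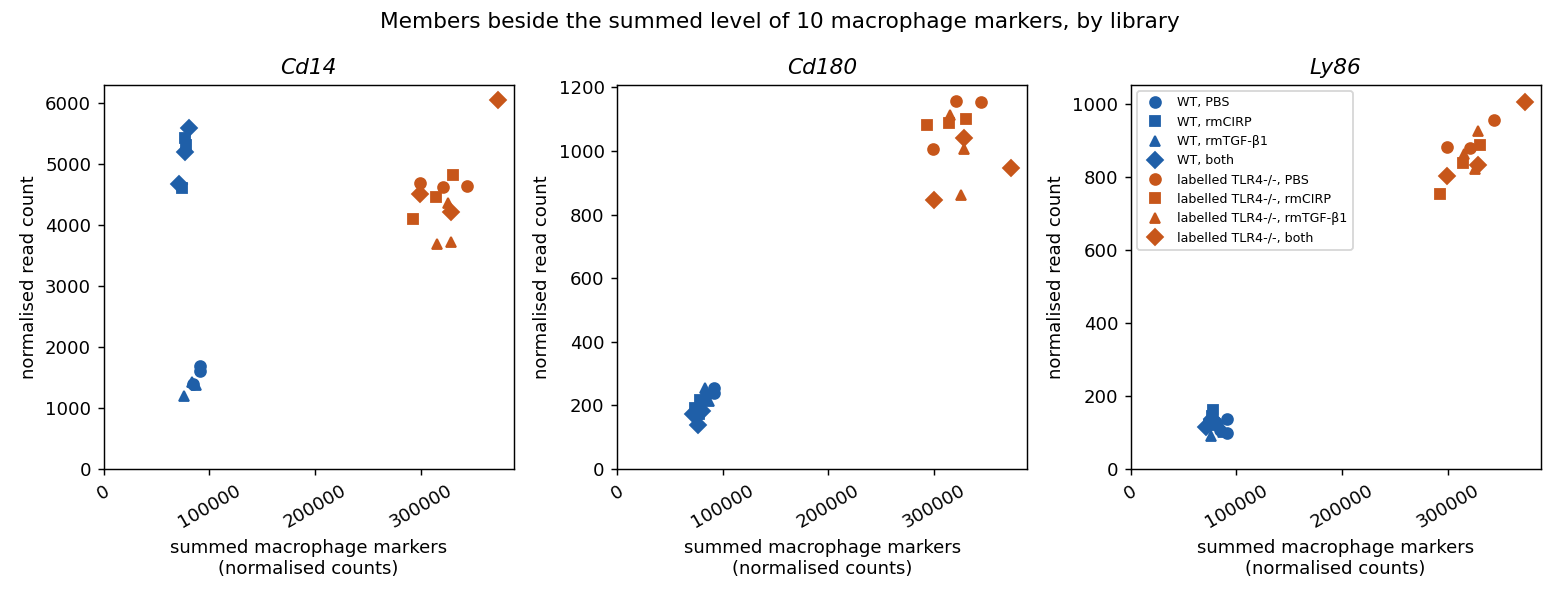
Normalised read count (y axis) of Cd14, Cd180 and Ly86 against the summed level of 10 macrophage markers (x axis, normalised counts), 1 point per library, WT in blue and labelled TLR4-/- in orange, with the marker shape giving the treatment. The genotypes form separate clusters in all 3 panels, and the WT libraries with rmCIRP lie above those with PBS for Cd14 at similar or lower marker sums, of which Lyz2 makes up most.

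The targeted gene itself was not lower. Tlr4 was higher in each labelled TLR4-/- library than in any WT library under the same treatment. The log2 difference was 0.25 (SE 0.06, adjusted p = 0.0012) with PBS. Under rmCIRP, rmTGF-β1 and their combination it was 0.27, 0.23 and 0.30. Which exons these reads came from cannot be seen in gene counts.

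Under rmCIRP, 4 of the 5 members were called between genotypes, with 59.5% of all genes. Cd180 was at 1088, 1082 and 1102 against 173, 192 and 218 normalised counts, a log2 difference of 2.49 (SE 0.11, adjusted p = 8.2e-15), and Ly86 differed by 2.55 (SE 0.12, adjusted p = 1.9e-14). Ly96 was lower in labelled TLR4-/- libraries, at 280.2, 307 and 314 against 337, 360.1 and 356 normalised counts. That difference of -0.22 (SE 0.08, adjusted p = 0.026) did not pass without replicate 1 of labelled TLR4-/- with rmCIRP. Cd14, which differed 2.96-fold with PBS, had a log2 difference of -0.19 (SE 0.11, adjusted p = 0.137) with rmCIRP.

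With rmTGF-β1, 4 of the 5 were called, with 46.5% of all genes, and the log2 differences were 1.57 for Cd14, 2.17 for Cd180 and 3.05 for Ly86. With both agents, 3 of the 5 were called (Tlr4, Cd180 and Ly86), with 52.8% of all genes. The log2 difference of Cd180 was 2.53 with and without replicate 3 of the labelled TLR4-/- cells, that of Ly86 was 2.81 with it and 2.71 without it, and that of Tlr4 was 0.30 with it and 0.26 without it. Cd14 was at -0.062 with it and not called, and at -0.23 (adjusted p = 0.031) and called lower without it.

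**Figure D4:**
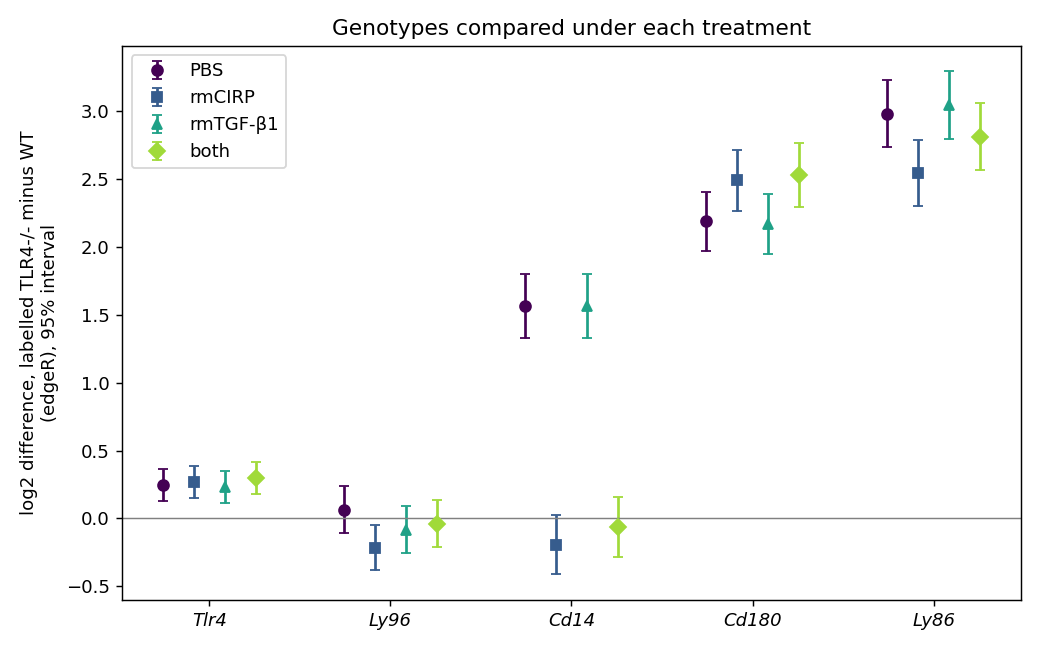
Log2 difference between labelled TLR4-/- and WT libraries (y axis, edgeR estimate with its 95% interval) of the 5 members (x axis) under 4 treatments (marker shapes). Cd180 and Ly86 lie above 2 under every treatment, Tlr4 between 0.23 and 0.30, and Cd14 is at 1.56 with PBS and 1.57 with rmTGF-β1 but below 0 in both conditions with rmCIRP.

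Since Cd180 and Ly86 moved together between genotypes, the sequences upstream of their start sites are shown. In the table of RefSeq promoters used here (GRCm38.p6), 2 of the 5 members were matched, with 1 start site for Ly86 and 2 for Cd180, and both genes are on the plus strand of chromosome 13. The 250 bases before the Ly86 start and before the first Cd180 start, 5′ to 3′, are as follows, with capitals marking the motif match named after them.
Ly86, chr13:37345095-37345344: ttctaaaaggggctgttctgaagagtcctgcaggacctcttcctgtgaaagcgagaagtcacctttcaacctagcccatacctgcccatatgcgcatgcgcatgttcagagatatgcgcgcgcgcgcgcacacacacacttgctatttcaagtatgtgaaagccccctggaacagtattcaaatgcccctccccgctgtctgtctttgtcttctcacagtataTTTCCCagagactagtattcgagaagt
Cd180, chr13:102693297-102693546: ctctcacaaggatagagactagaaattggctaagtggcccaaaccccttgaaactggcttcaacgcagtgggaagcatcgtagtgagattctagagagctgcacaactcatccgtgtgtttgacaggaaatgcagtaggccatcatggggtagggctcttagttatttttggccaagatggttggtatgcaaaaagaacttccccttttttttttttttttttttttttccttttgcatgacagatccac
On both strands of these windows, GAGGAA (found in many sites of the myeloid factor PU.1), TGANTCA (AP-1), TATAAA (the TATA box) and GGGAAA (part of many NF-κB sites) were searched. They occur in 23.3%, 6.75%, 12.4% and 21.9% of the 32851 windows of this length in the table. There was 1 match, GGGAAA on the minus strand of the Ly86 window, shown in capitals as its reverse complement, and neither Cd180 window held any of the 4. These letters say nothing of which factors bind there. Exons of Cd180 overlap those of Mast4 on the opposite strand in GENCODE M21, and the strand setting of the counting is not given in the sources used here. Between genotypes Mast4 reads moved the other way, with a log2 difference of -0.45 (SE 0.04, adjusted p = 2.1e-09) with PBS. With rmCIRP in WT cells they were lower, as those of Cd180 were. Mast4 had 5371 to 5445 normalised counts with PBS and 4893 to 5144 with rmCIRP. It had 5085 to 5175 with rmTGF-β1 and 4648 to 4828 with both. The part of Mast4 reads in the Cd180 counts was not tested.

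To set each homologue against its TLR4-side counterpart within 1 library, independent of library scaling, the log2 ratios of read counts Cd180/Tlr4 and Ly86/Ly96 were compared by exact two-sided permutation, with labels exchanged only within treatments or within a second agent, and 10 tests adjusted together. In WT libraries with PBS the log2 ratio Cd180/Tlr4 was -1.65 ± 0.02 (SD, n = 3) and Ly86/Ly96 -1.31 ± 0.20. In labelled TLR4-/- libraries with PBS they were 0.29 ± 0.15 and 1.61 ± 0.04. Both ratios thus lay below 0 in every WT library and above 0 in every labelled TLR4-/- library. These were ratios of reads not scaled by exon length, so that 0 does not mark equal levels per kilobase. Per kilobase, Ly96 stayed above Ly86 in labelled TLR4-/- libraries with PBS (289 against 249) and with rmCIRP (294 against 227). The 2 genes overlapped with rmTGF-β1 (237 against 239) and with both (265 against 242). Over the 4 treatments, the log2 ratio was higher in labelled TLR4-/- libraries by 2.08 for Cd180/Tlr4 and by 2.92 for Ly86/Ly96 (exact permutation p = 1.25e-05 each, the smallest that 160000 relabellings can give, adjusted p = 6.25e-05). The macrophage markers above differed between the same libraries.

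In WT cells rmCIRP lowered Cd180/Tlr4 by a log2 difference of -0.40 (exact permutation p = 0.005, the smallest that 400 relabellings can give, adjusted p = 0.017), at -0.31 without and -0.49 with rmTGF-β1. It did not change Ly86/Ly96 by this test (0.07, exact permutation p = 0.605, adjusted p = 0.76). The Cd180 ratio fell while no change of the Ly86 ratio was detected, and the difference between these 2 results was not tested. In labelled TLR4-/- libraries rmCIRP gave -0.11 for Cd180/Tlr4 (exact permutation p = 0.21, adjusted p = 0.35) and -0.15 for Ly86/Ly96 (exact permutation p = 0.045, adjusted p = 0.090), and the latter passed in only 4 of the 12 tests that left out a library. rmTGF-β1 raised Ly86/Ly96 in labelled TLR4-/- libraries by 0.24 (exact permutation p = 0.010, adjusted p = 0.025), and gave 0.09 in WT (exact permutation p = 0.47, adjusted p = 0.67). The difference between these genotype results was not tested. Against PBS in labelled TLR4-/- libraries, rmTGF-β1 gave log2 differences of -0.28 for Ly96 (called) and -0.053 for Ly86 (not called). For Cd180/Tlr4 the differences with rmTGF-β1 were 0.0017 in WT (exact permutation p = 0.98) and 0.000049 in labelled TLR4-/- libraries (exact permutation p = 1).

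**Figure D5:**
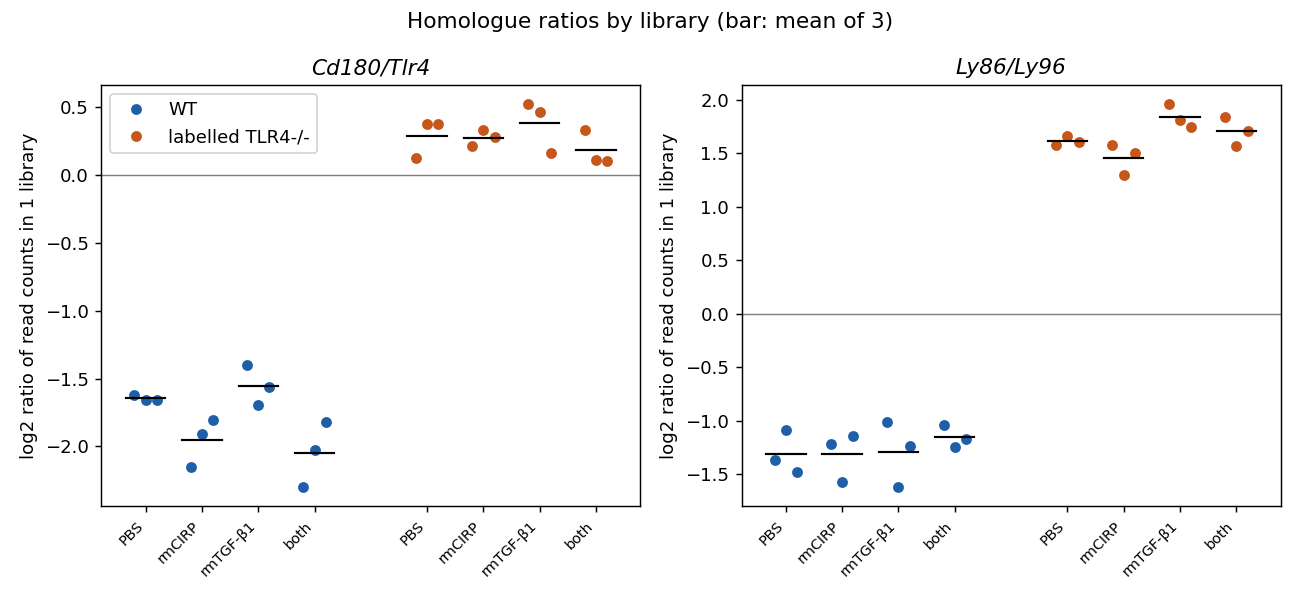
Log2 ratio of read counts within 1 library (y axis) for Cd180/Tlr4 (left) and Ly86/Ly96 (right) by condition (x axis), WT in blue and labelled TLR4-/- in orange, with 1 point per library and bars at the mean of 3. The grey line marks equal read counts, not scaled by exon length, and all WT points lie below it and all labelled TLR4-/- points above it.

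The profiles of the members over the 24 libraries were compared with those of 12311 genes with a mean of at least 50 normalised counts, by the root mean square difference of log2 values centred on each gene's own mean. Cd180 and Ly86 were 0.38 apart, Tlr4 and Ly96 0.21 apart, and Cd14 was at least 0.69 from every other member. The root mean square of each gene's own centred values was 1.19 for Cd180, 1.43 for Ly86, and 0.17 for both Tlr4 and Ly96. Tlr4 and Ly96 were thus further apart than either varied by itself, and Cd180 and Ly86 were not. Closest to Cd14 were Igsf6 (0.15), Mcoln2 (0.17) and Slc2a6 (0.18), with 6 genes in all within 0.2. Igsf6 went from 285 normalised counts with PBS to 1067 with rmCIRP in WT cells and stood at 813 with PBS in labelled TLR4-/- libraries, much as Cd14 did. Closest to Cd180 were C5ar1, the receptor for the complement peptide C5a (0.13), Lilrb4a (0.13) and Dock8 (0.14), with 18 genes within 0.2. Closest to Ly86 were Cd52 (0.18), Il10ra, a subunit of the interleukin 10 receptor (0.20), and Dennd1c (0.22). For Tlr4 (Rps6ka3, Dram2 and Nr3c1) and Ly96 (Esd, Abi1 and Avl9) the measure selects little, since 3805 and 3808 genes lay within 0.2 of them.

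The other genes of the pathway were examined as 5 lists. In WT cells with rmCIRP against PBS, 19.8% of all genes were called higher and 24.1% lower, and the median log2 difference of all genes was -0.022. The 9 adaptors and proximal kinases had 6 members called higher, 0 lower and 3 not called, with a median of 0.13. Myd88, the adaptor that most TLRs share, rose by 0.51 (SE 0.05, adjusted p = 1.2e-07) and Ticam2, the adaptor that brings TLR4 to TRIF, by 0.51 (SE 0.20, adjusted p = 0.051). Ticam2 shares exons with Tmed7, so that its reads are uncertain. Of the 7 tested genes that restrain TLR4 signaling, 4 were called higher and 0 lower, with a median of 1.01. Tnfaip3, which encodes the ubiquitin-editing protein A20, rose by 2.38 (SE 0.16, adjusted p = 4.9e-11) and Il1rl1, which encodes the interleukin 33 receptor ST2, by 2.08 (SE 0.34, adjusted p = 4.1e-05). Exons of Myd88, Irak3, Irak4, Lyn, Itgam, Rab11a, Hsp90b1, Lilrb4a, Cd52 and Dennd1c overlap exons of other genes in GENCODE M21 as well.

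Of the 8 genes for receptor folding and traffic, 3 were called higher and 3 lower with rmCIRP in WT cells (median 0.05). Unc93b1, the escort of endosomal TLRs, rose by 0.23 (SE 0.07, adjusted p = 0.014), and Rab11a, a GTPase of recycling endosomes, rose by 0.20 (SE 0.05, adjusted p = 0.0042). Rab7b, a GTPase of late endosomes that directs TLR4 to degradation, fell by 0.93 (SE 0.10, adjusted p = 2.0e-07) and Cnpy4 fell by 0.17 (SE 0.04, adjusted p = 0.0030). Among 5 tested genes for lipopolysaccharide delivery, 1 was called higher (Lbp, the lipopolysaccharide-binding protein, 0.39, SE 0.18, adjusted p = 0.086) and 3 lower (median -0.18), with Itgam at -0.32 and Scarb1 at -0.21. Of 4 tested genes that relay CD180 signals in B cells, Lyn was called higher (0.24) and 2 were called lower, Btk (-0.39) and Vav2 (-0.29), with a median of -0.15.

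Between genotypes with PBS, 23.2% of all genes were called higher in labelled TLR4-/- libraries and 24% lower. All 4 tested CD180 relay genes were called higher (median 1.71), led by Vav1 (2.16, SE 0.07, adjusted p = 1.1e-16) and Btk (2.05, SE 0.11, adjusted p = 4.7e-13). These are also expressed in macrophages, whose markers were higher as given above. The delivery genes had 3 called higher and 1 lower (median 1.34), with Itgam at 2.19, Itgb2 at 2.03 and Lbp at -0.62. The folding and traffic genes had 4 higher and 2 lower (median 0.08), with Unc93b1 at 1.66, Rab7b at 0.83, Cnpy4 at -0.24 and Hsp90b1 at -0.16. The adaptors had 4 higher and 0 lower (median 0.11), with Ticam2 at 2.06 and Irak4 at 0.55. The restraint genes had 1 higher and 2 lower (median -0.25), with Tnfaip3 at 0.49, Il1rl1 at -1.92 and Irak3 at -0.27.

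For the rmCIRP response in labelled TLR4-/- minus WT libraries, 17.1% of all genes were called higher and 14.3% lower. The adaptors had 0 higher and 6 lower (median -0.22), with Ticam2 at -0.61 and Myd88 at -0.51, and the restraint genes 0 higher and 4 lower (median -1.17), with Tnfaip3 at -2.41 and Il1rl1 at -2.11. This test shares its WT libraries with the comparison above. The folding and traffic genes had 2 higher (Rab7b at 1.01 and Cnpy4 at 0.22) and 4 lower (led by Rab11a at -0.34 and Unc93b1 at -0.31), with a median of -0.10. The delivery genes had 0 called either way, with a median of 0.14, and the CD180 relay genes had 1 higher (Vav2, 0.30) and 1 lower (Lyn, -0.27), with a median of 0.18.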

How the data were processed

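Total RNA from pulmonary fibroblasts was sequenced after TruSeq Stranded Total RNA preparation. STAR2 and the mouse GENCODE reference served for alignment, and the authors deposited the ht-seq counts for each gene symbol, 1 file per library, not normalised. The submitters' processing notes name the build NCBIM37 and the tools FastQC and HTSeq, with no versions given in the sources used here. The 5 tally rows per file (14.5% to 16.1% of reads) were left out. Libraries were grouped by their labels.

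The members and gene lists were chosen with earlier results of these data known. Differential expression was tested with edgeR 4.0.16 in R 4.3.3: filterByExpr, TMM, a mean for each of the 8 conditions over all 24 libraries, quasi-likelihood F-tests and Benjamini-Hochberg adjustment over the 16258 genes left, with an adjusted p under 0.1 called, in 15 comparisons. Each adjusted p of a gene is from this fit unless DESeq2 is named. Normalised counts are counts divided by DESeq2 1.42.0 size factors and serve to describe levels. Levels per kilobase used exon lengths of GENCODE M21, whose exon positions also gave the overlaps between genes. The promoter coordinates printed above do not come from it. Homologue ratios had 0.5 added to each count. Lists were described by counts and medians, and at most the 2 largest rises and 2 largest falls among called genes were named. Markers were listed by hand, 1 of them is not reported here by itself, and the 3 genes most like each member were sought among those with a mean of at least 50 normalised counts. Mast4 and the standing of single libraries were chosen for mention after their values were seen. The fit and the permutation test were checked on simulated data. Alternatives were DESeq2, RLE scaling, library totals alone, no filter, a mean count of at least 10, only the libraries compared, a replicate block, pseudocounts of 1 and 0.1 for the ratios, and leaving out each library. Ly86 in WT libraries had the fewest reads of the members, so that its precision is the lowest.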

Additional observations from a re-analysis of the deposited data

Results flagged for a closer look

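The responses of 3 members to rmCIRP differed between the genotypes by a test of the difference itself, on the log2 scale and as labelled TLR4-/- minus WT. The differences were -1.76 for Cd14 (adjusted p = 1.5e-08), -0.28 for Ly96 (adjusted p = 0.076) and -0.44 for Ly86 (adjusted p = 0.072). That of Cd14 passed in all 12 fits that left out a library, and those of Ly96 and Ly86 in only 5 and 6. With PBS, the labelled TLR4-/- libraries had 2.96-fold the Cd14 and 7.90-fold the Ly86 of WT libraries, and the summed macrophage markers had a log2 ratio of 1.85 between them. Their part in the differences was not tested. For this flagging, groups of 3 libraries were not searched for single outlying values of a member.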

How the results depend on the processing

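Of 85 results (75 for single members, 10 ratios), 69 kept their direction and side of the threshold in every alternative that kept all libraries, 45 in every fit that left out a library, and 43 in both, among them 25 of the 34 past the threshold. The rises of Cd14 with rmCIRP in WT and the higher Cd14 (with PBS and rmTGF-β1), Cd180, Ly86 and Tlr4 in labelled TLR4-/- libraries were among those 25. Low counts limit Ly86 in WT. The cause of the changes listed here was not tested.

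With rmCIRP against PBS in WT, Ly86 passed at 0.3142 with DESeq2, 0.3148 with RLE scaling, 0.3207 without the filter, 0.3267 with a mean count of at least 10, 0.3274 with only the libraries compared and 0.304 with the replicate block, and Tlr4 turned to 0.0016 with a mean count of at least 10 and 0.0024 with only the libraries compared. With both against rmCIRP in WT, Tlr4 did not pass at -0.1499 with DESeq2 and -0.1454 without the filter. Cd14 with rmTGF-β1 in WT passed at -0.2211 without the filter and -0.2241 with only the libraries compared.

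In labelled TLR4-/- libraries, Tlr4 with rmCIRP turned to -0.0019 with DESeq2, -0.00044 with RLE scaling and -0.0018 without the filter. Cd14 with rmTGF-β1 passed at -0.2664 with library totals, -0.2572 without the filter, -0.2388 with only the libraries compared and -0.2443 with the replicate block. Cd14 with both against rmTGF-β1 passed at 0.3277 with DESeq2, 0.3233 without the filter and 0.3168 with the replicate block. With both against rmCIRP, Cd180 did not pass at -0.208 with DESeq2, -0.2098 with RLE scaling, -0.2121 with only the libraries compared and -0.2133 with the replicate block, while Tlr4 passed at -0.1395 with library totals and Cd14 at 0.127 without the filter.

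Between genotypes, Cd14 with rmCIRP passed at -0.1982 without the filter, -0.1926 with only the libraries compared and -0.1926 with the replicate block, and Ly96 with both turned to 0.0012 with library totals. In the rmCIRP response difference, Ly96 did not pass at -0.2479 with library totals and -0.3008 without the filter, Cd180 passed at 0.2849 without the filter and 0.2926 with only the libraries compared, and Tlr4 turned to -0.00047 with a mean count of at least 10. In the rmTGF-β1 response difference, Cd14 turned to -0.0085 with DESeq2, -0.0082 with RLE scaling, -0.0084 with library totals, -0.012 with a mean count of at least 10 and -0.036 without the filter. No ratio changed its call with either pseudocount.

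The deviations of same-numbered libraries had a mean correlation of 0.020 over 84 pairs. It was highest with both against rmTGF-β1 in labelled TLR4-/-, at a mean of 0.35 (0.081 to 0.56). In no comparison did every pair exceed 0.1, so the numbers were not taken as pairs. The replicate block changed 5 calls of the members, given above, and the genes called with both against rmTGF-β1 in labelled TLR4-/- from 437 to 810.

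Leaving out 1 library at a time changed calls or directions as follows. In WT with rmCIRP the log2 differences ranged from -0.041 to 0.034 for Tlr4, from -0.3952 to -0.2443 for Cd180 and from 0.217 to 0.4675 for Ly86 (passing without replicate 2 of PBS or of rmCIRP). In WT with rmTGF-β1 they ranged from -0.2549 to -0.1761 for Tlr4 and from -0.2505 to 0.043 for Ly86. With both against rmTGF-β1 in WT, Ly86 ranged from 0.1475 to 0.37 (passing without replicate 1 of rmTGF-β1), and with both against rmCIRP Tlr4 ranged from -0.1831 to -0.1187 and Cd14 from -0.057 to 0.070.
In labelled TLR4-/- with rmCIRP, Tlr4 ranged from -0.032 to 0.031, Ly96 from -0.015 to 0.070 and Cd180 from -0.080 to 0.018. With rmTGF-β1, Ly96 ranged from -0.3239 to -0.2348 (not passing without replicate 3 of PBS), Cd14 from -0.3214 to -0.1952 (passing without replicate 3 of rmTGF-β1) and Cd180 from -0.2375 to -0.055 (passing without replicate 2 of rmTGF-β1). With both against rmTGF-β1, Ly96 ranged from 0.052 to 0.2496 (passing without replicate 1 of both), Cd14 from 0.1474 to 0.4233 (passing without replicate 3 of rmTGF-β1 or replicate 1 or 2 of both), Cd180 from -0.1717 to 0.011 and Ly86 from -0.093 to 0.072. With both against rmCIRP, Tlr4 ranged from -0.1668 to -0.085, Ly96 from -0.2578 to -0.060, Cd14 from -0.035 to 0.2409 (passing without replicate 1 of both), Cd180 from -0.287 to -0.1406 and Ly86 from -0.017 to 0.1475.
Between genotypes with rmCIRP, Ly96 ranged from -0.2481 to -0.1703 and Cd14 from -0.2608 to -0.1373 (passing without replicate 2 of WT or replicate 3 of labelled TLR4-/-), and with both Ly96 ranged from -0.1359 to 0.062 and Cd14 from -0.2346 to 0.041. In the rmCIRP response difference, Tlr4 ranged from -0.036 to 0.042, Ly96 from -0.3238 to -0.2532 (not passing without WT replicates 1 or 3 of PBS or 2 or 3 of rmCIRP, or labelled TLR4-/- replicates 1 or 3 of PBS or 1 of rmCIRP) and Ly86 from -0.6022 to -0.3451 (not passing without WT replicates 1 or 3 of PBS or of rmCIRP, or labelled TLR4-/- replicates 3 of PBS or 2 of rmCIRP). In the rmTGF-β1 response difference, Tlr4 ranged from -0.070 to 0.022, Cd14 from -0.078 to 0.059, Cd180 from -0.1058 to 0.084 and Ly86 from -0.097 to 0.198. In the difference of rmCIRP responses with and without rmTGF-β1, Ly86 ranged from -0.2143 to 0.065. Among the ratios, Cd180/Tlr4 ranged from -0.1631 to -0.073 for rmCIRP in labelled TLR4-/- (passing without replicate 1 of PBS), from -0.042 to 0.055 for rmTGF-β1 in labelled TLR4-/- and from -0.055 to 0.065 for rmTGF-β1 in WT, and Ly86/Ly96 ranged from -0.1808 to -0.1056 for rmCIRP in labelled TLR4-/- (not passing without replicates 2 or 3 of PBS, rmCIRP or both, or 1 or 2 of rmTGF-β1) and from -0.012 to 0.1395 for rmCIRP in WT.

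With all libraries kept, the number of all genes called moved by over 1.5 times in 5 comparisons. With rmCIRP in labelled TLR4-/- it was 0, against 33 with DESeq2, 149 without the filter, 1 with the replicate block and 29 with only the libraries compared. With both against rmTGF-β1 there it was 437, against 902 with DESeq2, 1580 without the filter, 810 with the replicate block and 0 with only the libraries compared, and with both against rmCIRP 5329 against 2710 with only the libraries compared. In the rmTGF-β1 response difference it was 14, against 163 with DESeq2, 563 without the filter, 23 with a mean count of at least 10 and 22 with the replicate block. In the difference of rmCIRP responses in WT it was 8, against 37 with DESeq2, 198 without the filter and 125 with only the libraries compared. Leaving out 1 library moved it by over 1.5 times in 6 comparisons. These were rmTGF-β1 against PBS in WT and in labelled TLR4-/- and both against rmTGF-β1 in labelled TLR4-/-, whose numbers are given with those results, rmCIRP in labelled TLR4-/- (1 without replicate 1 of PBS, 9 without replicate 3 of rmCIRP), the rmTGF-β1 response difference (0 to 119) and the difference of rmCIRP responses in WT (2 to 7). With library totals, genes called with rmCIRP in WT split into 2637 higher and 4935 lower, in place of 3212 and 3918.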
